A study of Mus musculus with 18 samples.

Results

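Apolipoproteins are the proteins that build, stabilize and address the lipid-carrying particles of plasma. The 10 genes described here are Apoa1, Apoa2, Apoa4, Apoa5, Apob, Apoc1, Apoc2, Apoc3, Apoe and Apom, chosen by gene symbol from a liver gene-expression table of 19057 genes, and all 10 were found. The table holds 18 liver libraries of male ICR mice, 10 weeks of age, in 6 groups of 3. Con mice had the regular diet and saline. HS mice had a high-fat diet and a dose of streptozotocin (STZ), a compound toxic to pancreatic beta cells, which secrete insulin. The A10-FMT and Con-FMT mice had the same diet and STZ and then, for a period after the STZ, daily oral transfer of microbiota (FMT), which was small-intestinal content pooled within the donor group, from donors dosed with 10 mg/kg alginate oligosaccharide (AOS) or from undosed donors. The A10 group (AOS at 10 mg/kg) and the HS+A10 group (diet, STZ and AOS at 10 mg/kg) are known from the sample labels alone, so that the route and duration of their dosing are not given here. No group had the diet without STZ or STZ without the diet, so both agents cannot be told apart, and neither FMT group has a counterpart on the regular diet. A sham transfer is not described for the HS mice. Against HS, the transferred microbiota thus cannot be told apart from the oral dosing and its vehicle.

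Most of these proteins are made in the liver, and some also in the intestine. Apob is the non-exchangeable scaffold of very low density lipoprotein (VLDL) and chylomicrons, while Apoa1 and Apoa2 are the scaffold of high density lipoprotein (HDL). The small proteins Apoc2 and Apoc3 activate and inhibit lipoprotein lipase, the enzyme that releases fatty acids from circulating triglyceride, Apoa5 promotes its action, and Apoe is the ligand by which remnant particles are taken up by receptors of the LDL receptor family.

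Values are RPKM, that is, a gene's reads scaled by its length and by the total of its library. Changes are differences of log2(RPKM + 1) with their standard error (SE), tested with limma over 10204 genes whose mean reached 1 RPKM, and a gene was called at a Benjamini-Hochberg adjusted p under 0.05. The number of reads is unknown, and steps between low values put the relative depth of the libraries between 0.951 and 1.082 of their mean. Nothing in the sources used here says which animals the libraries came from, so the p-values measure only the spread between these libraries. Bulk RNA cannot tell fewer cells of a type from less RNA per cell.

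Some libraries stood apart. The next values cover genes averaging 5 RPKM or more in the group. Where Con replicates 1 and 2 were at least 1.5-fold apart, Con replicate 3 lay between them for 97.8% of 451 genes. A10 replicate 3 did likewise for 96.3% of 298 genes, against 50.5% to 72.8% for the libraries of the other 4 groups. Whether replicate 3 of these groups is independent of replicates 1 and 2 was not tested. The SDs and p-values that involve Con or A10 treat it as independent. The apolipoprotein calls that involve Con or A10 are therefore also given without replicate 3 of Con and of A10. The counts of genes called from the other lists are given likewise. The marker RNAs of pancreatic acinar cells made up 3.28% of all RPKM in Con-FMT replicate 3 and at most 0.00675% in the other 17 libraries. Hepatocyte markers (8 of 9 listed) were present in every library, at 52797 to 66035 RPKM in sum in Con and 46532 to 53200 in HS. Red cell markers (5 of 5) summed to 1256 to 1972 RPKM in Con and 2886 to 10041 in HS, and stellate cell markers (6 of 6) to 71.97 to 83.11 RPKM in Con and 111.57 to 175.27 in HS. Between A10 and HS+A10, hepatocyte markers summed to 57031 to 62929 and 48270 to 50699 RPKM, stellate cell markers to 81.49 to 90.38 and 112.24 to 122.37 RPKM, and endothelial markers (6 of 6) to 54.68 to 61.95 and 71.88 to 91.41 RPKM. In A10-FMT the red cell markers summed to 1135 to 2049 RPKM, the endothelial markers to 42.36 to 51.58 RPKM, against 53.66 to 66.88 RPKM in HS, and the Kupffer cell markers (6 of 6) to 38.70 to 47.98 RPKM, against 57.01 to 99.89 RPKM in HS. The stellate cell markers summed to 87.23 to 110.57 RPKM in A10-FMT and 86.35 to 102.78 RPKM in Con-FMT. Each of these pairs of groups, taken with HS as the other group for both FMT groups, did not overlap, except Con and HS for hepatocyte markers. Their part in the results below was not tested.

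Of the 10 genes, 4 lie in 1 cluster on mouse chromosome 9 (Apoa1, Apoc3, Apoa4 and Apoa5, chr9:46228580-46271919 of GRCm38, 43340 bases) and 3 in another on chromosome 7 (Apoc2, Apoc1 and Apoe, chr7:19671579-19699188, 27610 bases, all on the minus strand). Apoa2 (chr1:171225054-171226379), Apob (chr12:7977648-8016835) and Apom (chr17:35128997-35132050) stand alone. The upstream stretches of only the 5 genes that were called in a comparison of the diet and STZ are shown. They are RefSeq promoter windows of GRCm38.p6, read 5′ to 3′ on the gene's strand without annotated exon bases, and capitals mark the motifs searched for on both strands.
Apoa4 (chr9:46240594-46240695, plus strand, bases -250 to -149): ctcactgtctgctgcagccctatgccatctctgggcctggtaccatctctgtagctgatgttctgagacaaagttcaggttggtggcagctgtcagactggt
Apoc2 (chr7:19677942-19678082, minus strand, bases -141 to -1): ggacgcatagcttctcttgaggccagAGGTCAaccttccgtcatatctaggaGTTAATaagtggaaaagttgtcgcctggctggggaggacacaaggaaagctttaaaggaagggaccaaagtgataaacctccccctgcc
Apob (chr12:7977427-7977647, plus strand, bases -250 to -30): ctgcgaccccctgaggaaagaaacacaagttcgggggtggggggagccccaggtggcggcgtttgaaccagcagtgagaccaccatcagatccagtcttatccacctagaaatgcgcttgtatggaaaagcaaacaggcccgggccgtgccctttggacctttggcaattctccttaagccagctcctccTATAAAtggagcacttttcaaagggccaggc
Apoe (chr7:19699189-19699438, minus strand, bases -250 to -1): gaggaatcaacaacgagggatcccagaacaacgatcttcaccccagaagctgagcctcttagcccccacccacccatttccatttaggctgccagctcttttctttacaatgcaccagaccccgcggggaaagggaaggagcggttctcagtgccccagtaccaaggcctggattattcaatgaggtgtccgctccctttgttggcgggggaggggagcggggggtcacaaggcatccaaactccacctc
Apoa1 (chr9:46228380-46228579, plus strand, bases -250 to -51): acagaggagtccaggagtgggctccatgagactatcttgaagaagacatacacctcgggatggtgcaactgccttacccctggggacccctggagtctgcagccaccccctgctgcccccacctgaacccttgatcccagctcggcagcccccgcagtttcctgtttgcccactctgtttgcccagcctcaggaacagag
The motifs were the nuclear receptor core AGGTCA, the TATA box TATAAA, the E-box CACGTG, the D-box TTATGTAA and the letters GTTAAT, of which no pair of occurrences overlapped in these stretches. Apoc2 held AGGTCA at -115 and GTTAAT at -89, and Apob held TATAAA at -60. Of the genes whose stretches are not printed, Apoa5 held CACGTG at -107 and TATAAA at -56, and Apoa2 held TATAAA at -212. Among all 32851 promoter windows of 250 bases, AGGTCA occurred in 14.0%, TATAAA in 12.4%, CACGTG in 6.02%, TTATGTAA in 0.819% and GTTAAT in 6.43%. The search covered the whole 250-base window of each gene, also where part of it is not printed. It found none of these letters in Apoa4, Apoe, Apoa1 and Apom. Promoter windows were found for 8 of the 10 genes, all but Apoc1 and Apoc3. A match describes the letters and is no evidence of binding.

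The apolipoproteins were among the most abundant liver mRNAs, and together they made up 5.76% to 9.33% of all RPKM in a library. By mean RPKM over the 18 libraries, which corrects for gene length, Apoa2 ranked 5 among all genes at 18968 RPKM, Apoe 7 at 16574 RPKM, Apoc1 10 at 9302 RPKM and Apoa1 14 at 8481 RPKM. Apoc3 followed at rank 23 with 3984 RPKM. The other 5 were well below Apoc3, with Apoa4 at 697 RPKM, Apoa5 at 596 RPKM, Apoc2 at 518 RPKM, Apob at 382 RPKM and Apom at 229 RPKM. The less abundant genes Apoa4 and Apoc2 varied most. The highest library was 9.19 times the lowest for Apoa4 and 4.10 times for Apoc2, against 1.44 times for Apom and 1.64 times for Apoc1.

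**Figure D1:**
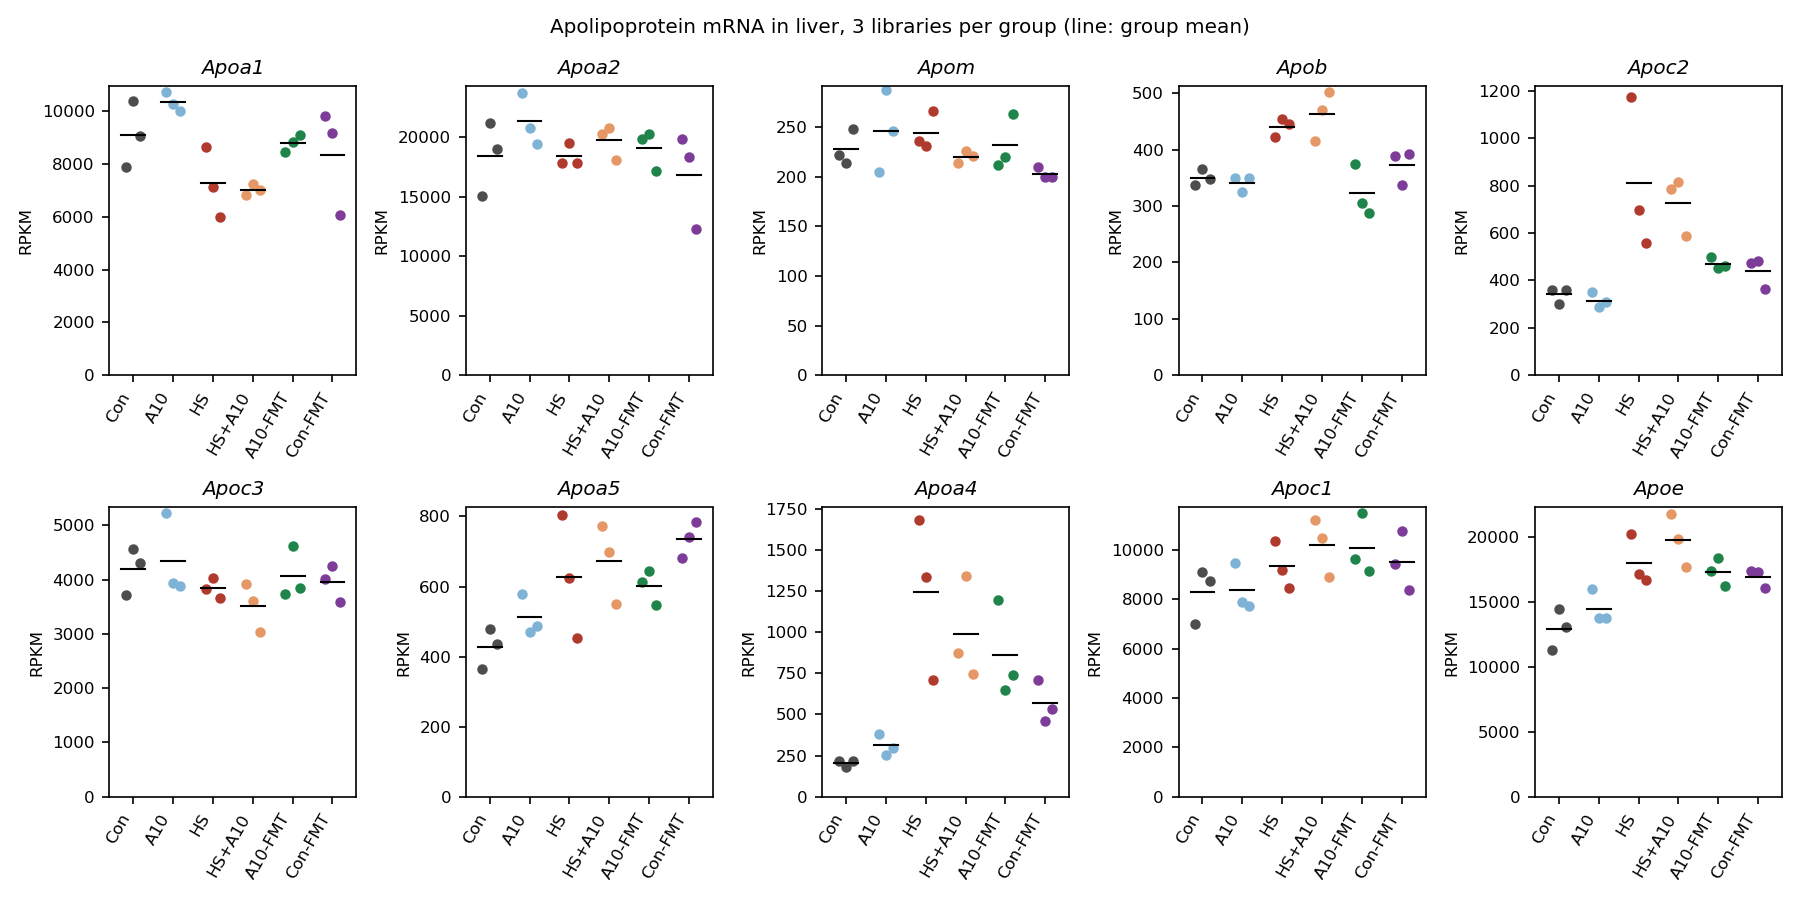
RPKM (vertical axis, from 0) of each of the 10 apolipoprotein genes in the 3 libraries of each of the 6 groups (horizontal axis). Points are libraries in the order of their replicate number and black lines are group means. Apoa4, Apoc2, Apob and Apoe lie higher in all HS libraries than in all Con libraries, and Apoa2, Apoc3 and Apom overlap between these groups.

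The comparison of HS with Con asks what the diet and STZ did to these mRNAs. 4 of the 10 apolipoproteins were called higher in HS, Apoa4, Apoc2, Apoe and Apob, and 0 were called lower. The background over every tested gene was 15.9% called higher and 1.87% called lower, a split that turned under median scaling, to 398 genes higher and 486 lower. The remaining 6 were not called, and of them Apoa5 was nearest, with an unadjusted p under 0.05. The median log2 change was 0.25 over the 10 genes and 0.14 over all genes tested. Most genes thus lay slightly higher in HS on the deposited scale, and the reason for this was not tested. The same agents were compared in mice dosed with AOS (HS+A10 against A10), with no library in common. There, 4 of 10 were called higher, Apoa4, Apoc2, Apob and Apoe, against a background of 13.6%, and Apoa1 was called lower, against a background of 7.28%. The median log2 change was 0.34 over the 10 genes and 0.04 over all genes.

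Apoa4, an exchangeable apolipoprotein of chylomicrons and HDL, showed the widest difference. It was at 218, 183 and 214 RPKM in the Con libraries and at 1683, 1339 and 710 RPKM in the HS libraries. Every HS library was above every Con library, and HS replicate 3 was well below the other HS libraries. The means were 205 ± 19.1 RPKM in Con and 1244 ± 494 RPKM in HS (SD, n = 3 each), a ratio of 6.07 and a log2 change of 2.51 (SE 0.30, limma adjusted p = 0.00018). In the AOS-dosed mice Apoa4 was at 384, 256 and 298 RPKM in A10 and at 874, 1342 and 747 RPKM in HS+A10. The groups again did not overlap, and the log2 change was 1.63 (SE 0.30, limma adjusted p = 0.00178). The size of the change differed by -0.88 on the log2 scale between AOS-dosed and undosed mice (95% interval -1.79 to 0.04, limma adjusted p = 0.40), so a difference between both settings was not shown.

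Apoc2, the activator of lipoprotein lipase, was at 362, 301 and 361 RPKM in Con and at 1176, 697 and 559 RPKM in HS. All HS libraries were above all Con libraries, and HS replicate 1 was the highest of the 18. The ratio of the means was 2.38 and the log2 change 1.18 (SE 0.21, limma adjusted p = 0.00249). In A10 it was at 350, 287 and 309 RPKM and in HS+A10 at 785, 814 and 587 RPKM. The groups did not overlap, the ratio was 2.31, and the log2 change was 1.20 (SE 0.21, limma adjusted p = 0.00123). The changes in both settings differed by 0.02 (95% interval -0.61 to 0.65). A read-through gene on the same strand, Gm44805, overlaps Apoc2 and could share its reads, and it was listed at 3.48 to 11.56 RPKM in Con and 10.41 to 12.02 RPKM in HS, far below Apoc2.

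Apoc3, the inhibitor of the same lipase, was not called. It was at 3708, 4555 and 4313 RPKM in Con and at 3818, 4022 and 3668 RPKM in HS. These groups overlapped, and the log2 change was -0.12 (SE 0.14, 95% interval -0.41 to 0.16, limma adjusted p = 0.54). In HS+A10 it was at 3918, 3600 and 3036 RPKM against 5217, 3933 and 3880 RPKM in A10, a log2 change of -0.30 that was not called (limma adjusted p = 0.14), although only HS+A10 replicate 1 reached the range of A10. Apoa5, which promotes lipolysis by the same enzyme, was at 366, 478 and 436 RPKM in Con and at 804, 625 and 454 RPKM in HS. HS replicate 3 lay within the range of Con, and the log2 change of 0.53 missed the threshold (SE 0.18, 95% interval 0.15 to 0.90, limma adjusted p = 0.052). Leaving out 1 library at a time put it between 0.33 without HS replicate 1 (limma adjusted p = 0.19) and 0.74 without HS replicate 3 (limma adjusted p = 0.00943), and after median scaling it was 0.34 (limma adjusted p = 0.24). Between HS+A10 and A10, Apoa5 differed by 0.39 (limma adjusted p = 0.14).

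Apoe was at 11312, 14428 and 13066 RPKM in Con and at 20258, 17151 and 16653 RPKM in HS. The lowest HS library was above the highest Con library, the ratio of the means was 1.39, and the log2 change was 0.48 (SE 0.12, limma adjusted p = 0.0145). In A10 it was at 15977, 13726 and 13745 RPKM and in HS+A10 at 21740, 19848 and 17717 RPKM, again without overlap and with a log2 change of 0.45 (SE 0.12, limma adjusted p = 0.0152). Its neighbour Apoc1, a small exchangeable apolipoprotein that inhibits several steps of lipid transfer and uptake, was at 7019, 9109 and 8758 RPKM in Con and at 10365, 9191 and 8452 RPKM in HS. Only HS replicate 3 lay within the range of Con, and the log2 change of 0.17 was not called (SE 0.14, 95% interval -0.13 to 0.48, limma adjusted p = 0.40). Apoc1 differed between HS+A10 and A10 by 0.28 (95% interval -0.02 to 0.59, limma adjusted p = 0.18).

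Apob, the scaffold protein of VLDL, was at 338, 365 and 347 RPKM in Con and at 422, 454 and 445 RPKM in HS. The replicates of each group were close to one another and the groups did not overlap. The ratio of the means was only 1.26, and the log2 change 0.33 (SE 0.10, limma adjusted p = 0.0359). This call held in 7 of 17 alternatives, and it was lost when Con replicate 1, Con replicate 3, HS replicate 2 or HS replicate 3 was left out (limma adjusted p = 0.083 to 0.11). In A10 Apob was at 349, 325 and 349 RPKM and in HS+A10 at 414, 471 and 502 RPKM, a ratio of 1.36 and a log2 change of 0.43 (SE 0.10, limma adjusted p = 0.00744). The changes in both settings differed by 0.10 (95% interval -0.20 to 0.41).

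Of Apoa1, Apoa2 and Apom, which are carried on HDL, Apoa1 was called lower in HS+A10 against A10 and the others were not called. Apoa1 was at 7890, 10371 and 9077 RPKM in Con and at 8655, 7126 and 6000 RPKM in HS. HS replicate 1 lay within the range of Con, and the log2 change of -0.34 was not called (SE 0.16, 95% interval -0.69 to 0.01, limma adjusted p = 0.16). In the AOS-dosed mice it was at 10715, 10273 and 10022 RPKM in A10 and at 6831, 7232 and 7029 RPKM in HS+A10. These groups did not overlap, and Apoa1 fell by 0.56 on the log2 scale (SE 0.16, limma adjusted p = 0.0261). The call was lost when any 1 of the 6 libraries was left out, at log2 changes of -0.58 to -0.53 (limma adjusted p = 0.055 to 0.079). Apoa2, the second scaffold protein of HDL, was at 15063, 21167 and 19006 RPKM in Con and at 17813, 19559 and 17874 RPKM in HS, with a log2 change of 0.01 (95% interval -0.34 to 0.37). All HS libraries lay within the range of Con. Between HS+A10 and A10 it differed by -0.11 (95% interval -0.46 to 0.24). Apom, a lipocalin that carries sphingosine 1-phosphate on HDL, stayed between 204 and 287 RPKM in Con, A10, HS and HS+A10, with log2 changes of 0.10 in HS and -0.14 in HS+A10 that were not called.

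**Figure D2:**
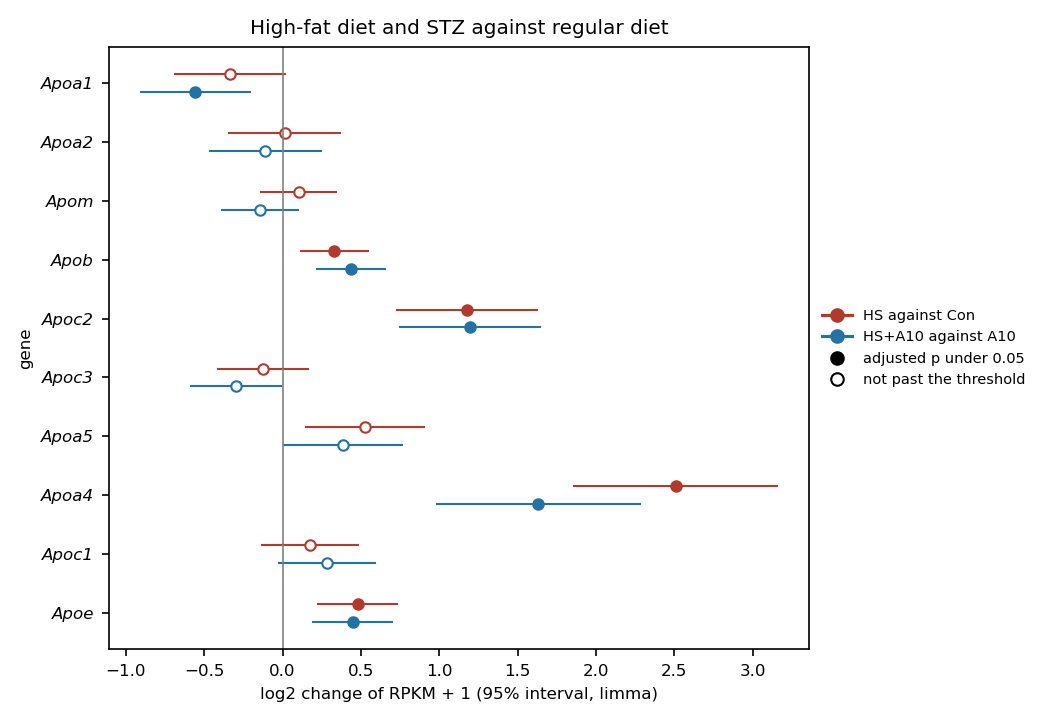
Log2 change of RPKM + 1 (horizontal axis) of each apolipoprotein gene (vertical axis) in HS against Con and in HS+A10 against A10, with 95% intervals from limma. Filled points passed an adjusted p of 0.05. Apoa4, Apoc2, Apob and Apoe are filled and right of 0 in both comparisons, and Apoa1 is left of 0 in both and filled in HS+A10 against A10 alone.

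How the libraries are scaled matters for the smaller changes. With every library scaled to the same median, Apoa4 still changed by 2.32 (limma adjusted p = 0.000332) and Apoc2 by 0.99 (limma adjusted p = 0.0113) in HS against Con, while Apoe changed by 0.29 (limma adjusted p = 0.13) and Apob by 0.14 (limma adjusted p = 0.26), so that neither was called. All 5 calls in HS+A10 against A10 were kept under median scaling. Among the changes that were not called in HS against Con, those of Apoa2, Apoc1 and Apom turned below 0 with median scaling and that of Apoc3 above 0 with quantile normalization. Without replicate 3 of Con and of A10, Apoa4 (limma adjusted p = 0.00323) and Apoc2 (limma adjusted p = 0.0159) were still called in HS, while Apoe, at 0.49 (limma adjusted p = 0.059), and Apob, at 0.33 (limma adjusted p = 0.12), kept their size and were not called. Of the calls in HS+A10 against A10, those of Apoa4, Apoc2 and Apob held without them, and those of Apoe, at 0.41 (limma adjusted p = 0.086), and Apoa1, at -0.58 (limma adjusted p = 0.081), did not. No further apolipoprotein was called without these libraries in the comparisons that involve Con or A10. The comparisons that involve neither group were not refitted without them. The exact two-sided permutation test gave p = 0.1 for each of these 5 genes where its groups did not overlap, which is the smallest p that 3 libraries against 3 allow.

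The FMT comparisons set the livers of mice given transferred microbiota against those of HS mice. Both use the HS libraries as their reference. In A10-FMT against HS, 2 of the 10 apolipoproteins were called lower, Apob and Apoc2, against 21.0% of all genes, and 0 were called higher, against 2.09%. Median scaling turned the split of all genes here too, from 213 higher and 2145 lower to 639 and 516. In Con-FMT against HS, 2 were also called lower, Apoa4 and Apoc2, against 19.0% of all genes, and 0 were called higher, against 4.61%. No further gene of the 10 reached an unadjusted p under 0.05 in A10-FMT, and Apob and Apom did in Con-FMT. The median log2 change over all genes was -0.16 and -0.12, and over the 10 genes it was -0.04 and -0.12. The share of apolipoproteins called lower was thus near the share of all genes.

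Apoc2 was at 498, 453 and 461 RPKM in A10-FMT and at 474, 482 and 364 RPKM in Con-FMT. All 6 libraries were below the lowest HS library, at 559 RPKM, and all 6 were above the highest Con library, at 362 RPKM. The log2 change against HS was -0.71 in A10-FMT (SE 0.21, limma adjusted p = 0.025) and -0.82 in Con-FMT (SE 0.21, limma adjusted p = 0.0114). In A10-FMT it rested in part on HS replicate 1, without which it was -0.41 and not called (limma adjusted p = 0.081), and median scaling also ended that call (-0.52, limma adjusted p = 0.14). In Con-FMT the call held without HS replicate 1, at -0.52 (limma adjusted p = 0.0395), and under median scaling, at -0.71 (limma adjusted p = 0.0332). With only the groups compared in the fit, neither call of Apoc2 held (limma adjusted p = 0.113 in Con-FMT).

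Apoa4 was at 1195, 651 and 737 RPKM in A10-FMT and at 710, 461 and 534 RPKM in Con-FMT. These libraries all lay above the highest A10 library, at 384 RPKM. HS replicate 3 overlapped both FMT groups. The log2 change against HS was -1.06 in Con-FMT (SE 0.30, limma adjusted p = 0.020) and -0.49 in A10-FMT (SE 0.30, 95% interval -1.14 to 0.16, limma adjusted p = 0.24). In A10-FMT it depended on single libraries, from -0.23 without HS replicate 1 (limma adjusted p = 0.63) to -0.85 without HS replicate 3 (limma adjusted p = 0.054), and was -0.75 without A10-FMT replicate 1 (limma adjusted p = 0.09). The call in Con-FMT was lost without HS replicate 1 (-0.80, limma adjusted p = 0.09), without HS replicate 2 (-0.97, limma adjusted p = 0.067) and without Con-FMT replicate 2 (-0.92, limma adjusted p = 0.075). It was also lost with only the groups compared in the fit (limma adjusted p = 0.0932). Set directly against each other, A10-FMT and Con-FMT differed in Apoa4 by 0.57 (95% interval -0.08 to 1.22, limma adjusted p = 0.21).

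Apob was at 375, 306 and 288 RPKM in A10-FMT and at 388, 338 and 392 RPKM in Con-FMT. All 6 libraries were below the lowest HS library, at 422 RPKM, and A10-FMT replicates 2 and 3 were also below the lowest Con library, at 338 RPKM. The log2 change against HS was -0.46 in A10-FMT (SE 0.10, limma adjusted p = 0.00663), and it was still called under median scaling (-0.26, limma adjusted p = 0.0379). The call was lost with only the groups compared in the fit (limma adjusted p = 0.0535). In Con-FMT the log2 change was -0.24 and not called (SE 0.10, limma adjusted p = 0.095). A10-FMT and Con-FMT differed in Apob by -0.21 (95% interval -0.43 to 0.00, limma adjusted p = 0.16). That difference was called without A10-FMT replicate 1 (-0.32, limma adjusted p = 0.0367), and it was -0.13 under median scaling (limma adjusted p = 0.23) and -0.05 with quantile normalization (limma adjusted p = 0.74).

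Apoe, the receptor ligand, was not called in either FMT group. It was at 17351, 18400 and 16191 RPKM in A10-FMT and at 17409, 17276 and 16091 RPKM in Con-FMT. All 6 libraries were above the highest Con library, at 14428 RPKM, and both groups overlapped HS, with log2 changes of -0.05 (95% interval -0.31 to 0.20) and -0.09 (95% interval -0.34 to 0.17). The change in A10-FMT moved with the scaling, to 0.14 under median scaling (limma adjusted p = 0.47) and to -0.42 with quantile normalization (limma adjusted p = 0.16). Quantile normalization sets a value by its rank within the library, and Apoe ranked 7 by mean RPKM. Apoa5 lay within the range of HS, at 547 to 643 RPKM for A10-FMT and 682 to 784 RPKM for Con-FMT, and its group mean was the highest of the 6 in Con-FMT. Apoc1 was at 9138 to 11500 RPKM in A10-FMT and at 8375 to 10774 RPKM in Con-FMT, and Apoc3 at 3739 to 4613 RPKM and 3595 to 4244 RPKM. The log2 changes in A10-FMT and Con-FMT were -0.03 and 0.27 for Apoa5, 0.11 and 0.03 for Apoc1, and 0.08 and 0.04 for Apoc3, and none of these 4 genes was called in either FMT comparison.

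Apoa1 was at 8470, 8838 and 9100 RPKM in A10-FMT, all above HS replicates 2 and 3, with a log2 change of 0.29 that was not called (95% interval -0.06 to 0.64, limma adjusted p = 0.20). In Con-FMT it was at 9814, 9172 and 6050 RPKM. The low library is Con-FMT replicate 3, the one with acinar RNA, which was also the lowest of the 18 for Apoa2, at 12261 RPKM against 19832 and 18319 RPKM in the other Con-FMT libraries. Without it, Apoa1 differed from HS by 0.40 (limma adjusted p = 0.06), and Apoa4 (-1.03, limma adjusted p = 0.0471) and Apoc2 (-0.69, limma adjusted p = 0.0429) were still called. Apoa2 differed from HS by 0.05 in A10-FMT (95% interval -0.30 to 0.40) and by -0.16 in Con-FMT (95% interval -0.51 to 0.19). Apom was at 212, 219 and 262 RPKM in A10-FMT and at 209, 200 and 200 RPKM in Con-FMT. All Con-FMT libraries were below all HS libraries for Apom, but the log2 change of -0.26 was not called (95% interval -0.50 to -0.02, limma adjusted p = 0.11).

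**Figure D3:**
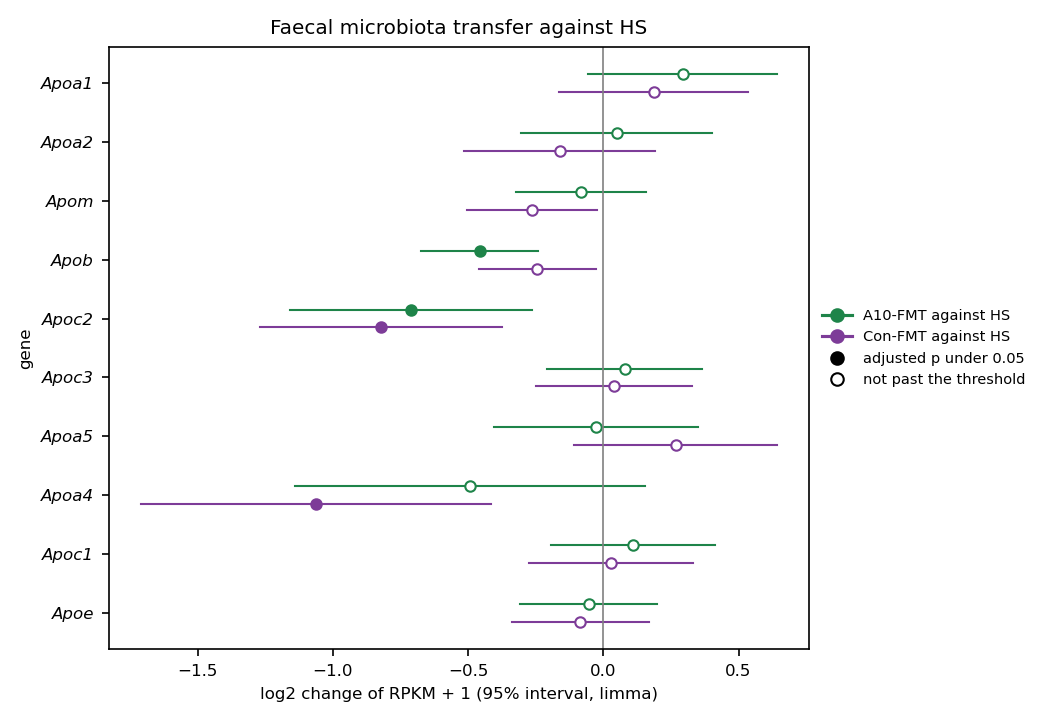
Log2 change of RPKM + 1 (horizontal axis) of each apolipoprotein gene (vertical axis) in A10-FMT against HS and in Con-FMT against HS, with 95% intervals from limma. Filled points passed an adjusted p of 0.05. Apoc2 is filled and left of 0 in both, Apob in A10-FMT alone and Apoa4 in Con-FMT alone, and Apoe lies near 0 in both.

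In 4 further comparisons limma called 0 of the 10 apolipoproteins, and 0 of them had an unadjusted p under 0.05. With AOS dosing in HS mice (HS+A10 against HS), 7.32% of all genes were called. The log2 changes were -0.29 for Apoa4, -0.15 for Apom, -0.13 for Apoc3, -0.10 for Apoc2, -0.03 for Apoa1, 0.07 for Apob, 0.10 for Apoa2, and 0.13 for Apoc1, Apoa5 and Apoe. With AOS dosing on the regular diet (A10 against Con), 0.0686% of all genes were called. Apoa4 was the gene farthest from 0 there, at 0.59 (95% interval -0.06 to 1.24, limma adjusted p = 0.41), and every A10 library, from 256 RPKM, was above every Con library, up to 218 RPKM. The other 9 lay between -0.11 for Apoc2 and 0.27 for Apoa5, with Apoa2 at 0.22, Apoa1 at 0.19, Apoe at 0.17, Apom at 0.10, Apoc3 at 0.04, Apoc1 at 0.02 and Apob at -0.04. Between the FMT groups, 18.8% of all genes were called. Beside Apoa4 and Apob, already given, A10-FMT differed from Con-FMT by -0.29 in Apoa5, 0.21 in Apoa2, 0.18 in Apom, 0.11 in Apoa1 and Apoc2, 0.08 in Apoc1, 0.04 in Apoc3 and 0.03 in Apoe. Between the HS effect with and without AOS dosing, 0.00980% of all genes were called. Beside Apoa4, Apoc2 and Apob, given with their genes, the effects differed by -0.25 in Apom, -0.22 in Apoa1, -0.17 in Apoc3, -0.14 in Apoa5, -0.12 in Apoa2, -0.03 in Apoe and 0.11 in Apoc1. These intervals leave room for differences of some size, such as a log2 change of -0.54 to 0.35 for Apoc2 in HS+A10 against HS.

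Ratios between 2 apolipoproteins within a library do not depend on a single factor that scales the whole library. Quantile normalization, which goes by rank, can change them. The ratios below were picked with the values known, as a description. Apoe over Apoa1 was 1.39 to 1.44 in Con and 1.34 to 1.49 in A10, and 2.34 to 2.78 in HS and 2.52 to 3.18 in HS+A10. It was 1.78 to 2.08 in A10-FMT, between Con and HS, while Con-FMT ranged from 1.77 to 2.66, where the value of 2.66 was that of the library with acinar RNA. Apoc2 over Apoc3, activator over inhibitor, was 0.066 to 0.098 in Con, 0.067 to 0.080 in A10, 0.152 to 0.308 in HS and 0.193 to 0.226 in HS+A10. A10-FMT held 0.098 to 0.133 and Con-FMT 0.101 to 0.118, above Con and below HS in every library. Apoc1 over Apoe, neighbours on chromosome 7, was lower in HS, at 0.508 to 0.536, than in Con, at 0.621 to 0.670, where the value of 0.670 was that of replicate 3.

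**Figure D4:**
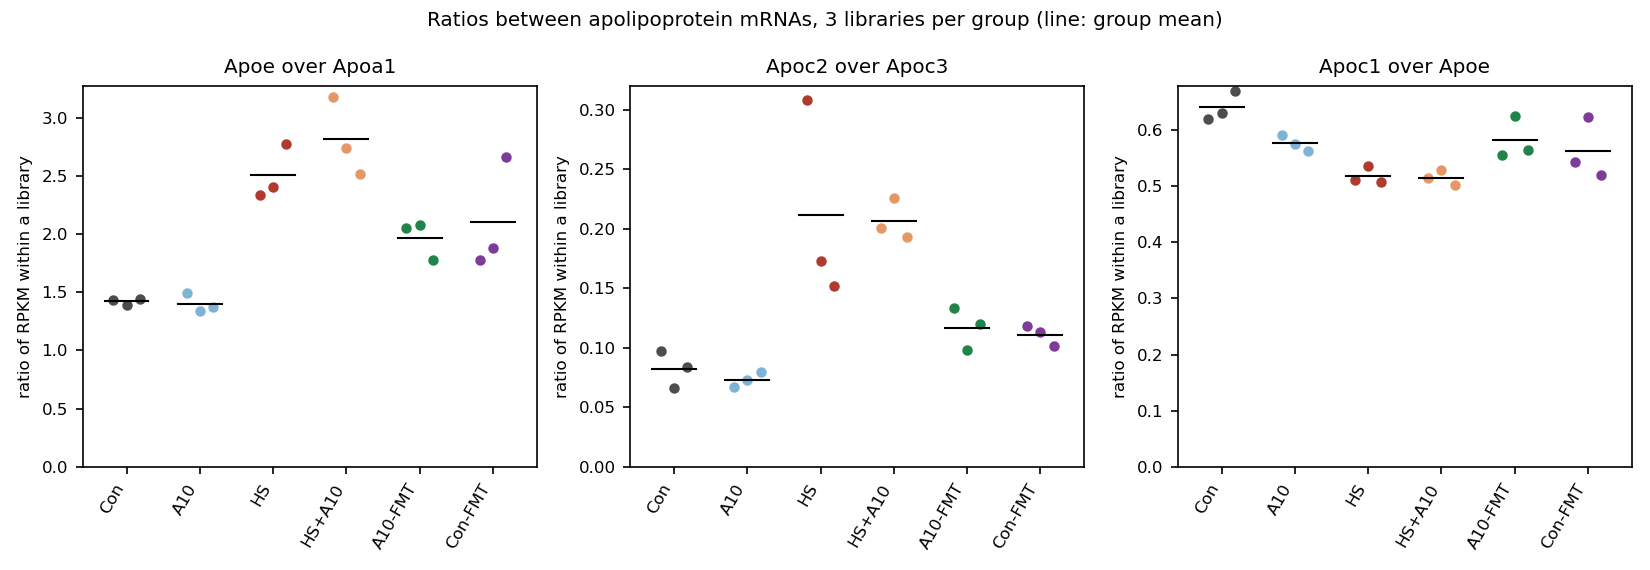
Ratio of RPKM within a library (vertical axis, from 0) for Apoe over Apoa1, Apoc2 over Apoc3 and Apoc1 over Apoe in the 3 libraries of each of the 6 groups (horizontal axis). Points are libraries and black lines are group means. Apoe over Apoa1 lies at 1.34 to 1.49 in the Con and A10 libraries and at 2.34 to 3.18 in the HS and HS+A10 libraries.

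Genes of 1 cluster received different calls, and the differences between their changes were not tested. In HS against Con the uncalled change of Apoa5 (0.53) was larger than the called one of Apoe (0.48). The Apoe call was lost under median scaling (limma adjusted p = 0.13). On chromosome 9, Apoa4 was called higher in HS against Con, Apoa5 was not called, and Apoc3 and Apoa1 were not called either. Apoa4 overlaps the opposite-strand genes Gm47528 and Gm10680, and Apoa5 overlaps Gm47544, none of which is in the table, so reads from the opposite strand cannot be told apart. Across the 18 libraries Pearson's r of log2 values was 0.69 between Apoa4 and Apoa5, -0.47 between Apoa4 and Apoa1, and -0.37 between Apoa4 and Apoc3. On chromosome 7, Apoc2 and Apoe were called higher in HS and Apoc1 was not, and r was 0.80 between Apoc2 and Apoe and 0.85 between Apoc1 and Apoe. Across clusters, r was 0.88 between Apoa4 and Apoc2. After subtracting group means it was 0.55 for Apoa4 and Apoa5, 0.35 for Apoa4 and Apoa1 and 0.13 for Apoa4 and Apoc3, so that both negative values turned positive. It was 0.56 for Apoc2 and Apoe, 0.73 for Apoa4 and Apoc2, 0.91 for Apoc1 and Apoe and 0.89 for Apoc1 and Apoc3. These are descriptions over 18 libraries that share group means and library scaling, and without replicate 3 of Con and of A10 the values named here kept their sign.

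The 3 genes with the most similar pattern over the 18 libraries, among 6376 other genes averaging 5 RPKM or more, were determined for each gene called in a comparison. For Apoa4 they were Abcb4 (r = 0.94), the canalicular phospholipid exporter, Atp6v1c1 (r = 0.91) and Mtfr1l (r = 0.91). After subtracting group means these were 0.90, 0.75 and 0.47. For Apoc2 they were Psmd9, Gpc1 and Golt1a (r = 0.90 each), and 0.59, 0.54 and 0.65 after subtracting group means. Apob was nearest to Ate1 (r = 0.96), Sptbn1 (r = 0.95) and Atp6v1a (r = 0.94), and Apoe to Tex264 (r = 0.96), Ptp4a3 (r = 0.95) and Hsd17b6 (r = 0.95). Apoa1 was nearest to Ttr (r = 0.85), which encodes another abundant plasma protein of hepatocytes, Rpl11 (r = 0.84) and Sod1 (r = 0.79). After subtracting group means r was 0.71 to 0.93 for the genes nearest to Apob. It was 0.77 to 0.84 for those nearest to Apoe and 0.685 to 0.762 for those nearest to Apoa1.

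Other genes of lipoprotein metabolism were taken from lists, and the called genes with the smallest adjusted p are named. The shares of all genes called that stand beside the apolipoproteins in each comparison are the background here too, and nothing particular to a list is read from its counts. Of 17 other apolipoproteins, 8 were tested, and their median log2 change was 0.30 in HS against Con and 0.00 in HS+A10 against A10. Clu, clusterin or apolipoprotein J, was called higher in HS, from 841 ± 111 to 1072 ± 87.1 RPKM (SD, n = 3 each), and in HS+A10, from 738 ± 4.70 to 957 ± 31.1 RPKM. Both calls were lost under median scaling (limma adjusted p = 0.40 and 0.058) and without replicate 3 of Con and of A10 (limma adjusted p = 0.073 and 0.057). Of 22 tested genes of lipoprotein assembly and secretion, 2 were called higher and 2 lower in HS, with a median log2 change of 0.09. Tm6sf2, which is needed to load VLDL with lipid, rose in HS against Con (log2 change 0.49, limma adjusted p = 0.0246) and fell by 0.52 in HS+A10 against A10 (limma adjusted p = 0.0143). Without replicate 3 of Con and of A10 neither of these calls held (limma adjusted p = 0.077 and 0.057), and the first was also lost under median scaling (limma adjusted p = 0.11). It was lower than in HS in A10-FMT, with a log2 change of -0.78, and in Con-FMT, with one of -0.93. In A10-FMT 4 genes of this list were called higher and 6 lower, among them Dgat2 (0.82), an enzyme of triglyceride synthesis, and Surf4 (-0.46), a cargo receptor of secretion. Apobec1, which edits the Apob mRNA to the short form of the protein, rose from 13.4 ± 2.30 RPKM in HS to 45.3 ± 16.9 RPKM in Con-FMT (limma adjusted p = 0.000393). The table does not separate edited from unedited Apob.

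Of 10 tested genes of plasma lipolysis, 3 were called higher and 2 lower in HS, with a median of 0.24. Angptl4, an inhibitor of lipoprotein lipase, rose from 21.2 ± 3.87 to 50.8 ± 21.2 RPKM, Angptl8 fell by 1.42 on the log2 scale, and Creb3l3, a transcription factor that also stands in the list of regulators, rose by 0.56. Under AOS dosing, 2 were called higher and 3 lower in HS+A10 (median 0.11), with Angptl8 at -1.54 and Creb3l3 at 0.89. Lpl, the lipase itself, was called lower than in HS in A10-FMT (-1.06) and Con-FMT (-0.69). Of 13 tested genes of HDL formation and remodelling, 3 were called higher and 2 lower in HS, with a median of 0.09. Scarb1, the HDL receptor, rose from 52.0 ± 6.06 to 103 ± 19.1 RPKM. Saa2, an acute-phase protein of HDL, was at 84.6 ± 49.9 RPKM in HS and at 3715 ± 3360 RPKM in Con, where its spread was nearly as large as its mean. Saa2 was also called lower in A10, at 62.6 ± 43.9 RPKM, than in Con (log2 change -5.24, limma adjusted p = 0.0307). A low Saa2 against Con was thus not particular to the diet and STZ. The call in A10 was lost without replicate 3 of Con and of A10. Scarb1 also rose in HS+A10 (0.74), where Pltp fell by 1.51. In A10-FMT 0 of the 13 were called by limma and 2 had an unadjusted p under 0.05, and in Con-FMT Saa1 (3.15) and Saa2 (3.37) were called higher.

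Of 15 tested genes of receptors and particle clearance, 5 were called higher and 0 lower in HS (median 0.14), with 7 at an unadjusted p under 0.05. Sulf2, which removes sulfate from the heparan sulfate that binds remnants, rose from 3.07 ± 0.57 to 13.7 ± 4.32 RPKM (limma adjusted p = 4.44e-05), Mylip, which marks the LDL receptor for degradation, by 0.71, and Sdc1, a heparan sulfate proteoglycan of the remnant pathway, by 0.52. Against A10, 7 were called higher and 2 lower in HS+A10 (median 0.37), among them Sulf2 at 1.87 and Lsr at -0.84. Sdc1 was lower than in HS in A10-FMT (-0.83). In Con-FMT 6 of the 15 were called lower, among them Ndst1 (-0.42) and Vldlr (-0.75).

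Among 33 tested transcription regulators of apolipoprotein genes, HS had 7 called higher than in Con and 2 called lower (median 0.14). Nr1d1 and Nr1d2, nuclear receptors of the circadian clock, were among those called higher. Nr1d1 was at 2.54 ± 1.24 RPKM in Con and at 21.4 ± 5.02 RPKM in HS, and Nr1d2 rose by 1.44. Nr1d1 and Nr1d2 also differed between A10 and Con, by 2.45 and 1.39, a comparison in which 0 apolipoproteins were called. Both calls were lost, as was every call of that comparison, without Con replicate 1, Con replicate 3 or A10 replicate 3, with limma adjusted p from 0.063 to 0.15. The time of day at which the livers were taken is not given in the sources used here, and its part in the apolipoprotein changes was not tested. HS+A10 had 9 regulators called higher than in A10 and 3 lower (median 0.04), with Nr1d2 at 1.28, Creb3l3 at 0.89 and Nr2f2 at 0.78. In A10-FMT 6 were called higher and 1 lower, led by Nr1d2 (1.08), Foxo1 (0.29) and Nr3c1 (0.27). In Con-FMT 5 were called higher and 4 lower, among them Foxo1 (0.59) and Nr2f2 (-0.86).

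The counts of these lists depended on the scaling and on the libraries. In HS against Con, median scaling left 0 higher and 3 lower of the genes of assembly and secretion, 1 and 2 of plasma lipolysis, 2 and 2 of HDL formation, 2 and 1 of particle clearance, and 2 and 3 of the regulators, with Creb3l3 (limma adjusted p = 0.056) and Sdc1 (limma adjusted p = 0.059) no longer called. Without replicate 3 of Con and of A10 the counts in the same order were 0 and 0, 3 and 1, 2 and 1, 3 and 0, and 4 and 2. In HS+A10 against A10 they were 2 and 3, 2 and 3, 3 and 2, 7 and 2, and 8 and 5 under median scaling, and 0 and 0, 2 and 2, 3 and 1, 3 and 2, and 6 and 2 without those libraries. Under median scaling A10-FMT had 5 higher and 3 lower, 1 and 2, 1 and 0, 1 and 1, and 9 and 0, and Con-FMT 4 and 1, 1 and 2, 3 and 0, 1 and 4, and 8 and 4.

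Apoa4 and Apob are also made by enterocytes, so enterocyte markers are given beside them. Of 7 markers, Sis, Cdx1 and Cdx2 were listed at 0 in all 18 libraries. Nearly all of the summed level in Con, HS and HS+A10 came from Fabp2. The sum was 36.57 to 57.43 RPKM in Con, 63.29 to 67.26 RPKM in A10 and 157.92 to 210.17 RPKM in HS+A10. In HS replicates 1, 2 and 3 it was 203.58, 71.45 and 65.32 RPKM, so the high HS value was that of replicate 1 alone. It was 87.38 to 106.58 RPKM in A10-FMT and 76.37 to 111.54 RPKM in Con-FMT.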

How the data were processed

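Liver mRNA of 18 libraries, 6 groups of 3 by their labels, was sequenced by the authors after oligo(dT) enrichment. The methods of the study name SOAPaligner and the submitters' processing notes name Bowtie 0.12.2 and mm10. The authors deposited RPKM with 2 decimals, and these values were used without further scaling. Lengths and reads per gene are not in the table, so depth is known only relative to other libraries. Of the symbols, 26 had been turned into dates and 3 stood on more than 1 row, none of them an apolipoprotein.

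Genes whose mean over all libraries reached 1 RPKM were fitted as log2(RPKM + 1) in limma 3.58.1 (R 4.3.3), with 1 mean for each of the 6 groups, all 18 libraries in the fit and a variance trend. Tests were two-sided. Exact permutation tests, positions (GRCm38, GENCODE annotation) and figures were made in Python 3.11.15. The fit was tested on simulated data. Alternatives changed the pseudocount, filter, scaling, variance trend, threshold, block and libraries. DEGseq, the test of the study, was not used because it ignores the spread between replicates.

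The 10 apolipoproteins are given in each comparison, and from each other list at most 3 called genes with the smallest adjusted p. A few genes that this selects are left out. The apolipoproteins and the lists were chosen with earlier results of these data known.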

Additional observations from a re-analysis of the deposited data

How the results depend on the processing

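The numbers of genes and of apolipoproteins called depended on the scaling, on the libraries and on the fit, and no change of a called apolipoprotein reversed. The cause of these shifts was not tested. In HS against Con, 1618 genes were called higher and 191 lower on the deposited scale, 398 and 486 with median scaling, 486 and 390 with quantile normalization, and 917 and 265 with equal sums without the 50 most abundant genes. In A10-FMT against HS the split was 213 and 2145, and 639 and 516 with median scaling, 573 and 541 with quantile normalization, and 423 and 673 without the 50 most abundant genes. For the other comparisons median scaling gave 1243 and 1151 in HS+A10 against A10 (1388 and 743 as deposited), 858 and 1240 in Con-FMT against HS (470 and 1943), 579 and 356 in HS+A10 against HS (301 and 446) and 1302 and 958 in A10-FMT against Con-FMT (686 and 1228).

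Genes called in HS against Con, with apolipoproteins in brackets, were 1809 (4), against 876 with quantile normalization, 884 (2) with median scaling, 2740 with equal sums, 1182 without the 50 most abundant genes, 702 (2) with only the groups compared in the fit, and 39 (1) at the threshold of the study. In HS+A10 against A10 they were 2131 (5), against 132 (0) at that threshold, and 3 apolipoproteins without a filter. In A10-FMT against HS they were 2358 (2), against 1114 (1), 1155 (1), 3779, 1096 (1), 846 (0) and 33 (0) in the order of settings above. In Con-FMT against HS they were 2413 (2), against 1307 with a mean of at least 5 RPKM, 777 (0) with only the groups compared and 96 (0) at the threshold of the study. In HS+A10 against HS they were 747, against 365 with equal sums, 76 with only the groups compared and 2 at that threshold. In A10 against Con they were 7, against 18 without a filter, 40 with only the groups compared and 0 at that threshold. In A10-FMT against Con-FMT they were 1914, against 1229 with a mean of at least 5 RPKM, 687 with only the groups compared and 80 at that threshold. For the difference of the HS effect with and without AOS dosing there was 1 gene, against 4 with a pseudocount of 0.1, 2 without a filter, 2 with a mean of at least 5 RPKM, 6 with equal sums, 8 with only the groups compared and 0 at that threshold.

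Leaving out Con and A10 replicate 3 together, an alternative added after seeing the data, gave 700 (2) in HS against Con, 1164 (3) in HS+A10 against A10, 0 in A10 against Con and 0 for the difference of effects. With 1 replicate left out at a time, the counts were 847 to 1599 (2 to 5 apolipoproteins, 2 without Con replicate 1) in HS against Con, 1325 to 1688 (3 to 4) in HS+A10 against A10, 1297 to 2586 (1 to 2, 1 without HS replicate 1) in A10-FMT against HS, 1 to 2 apolipoproteins in Con-FMT against HS, 152 to 1233 in HS+A10 against HS, 0 to 72 in A10 against Con, 1178 to 1636 (0 to 1) in A10-FMT against Con-FMT and 0 to 118 for the difference of effects.

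The replicate block, with the number in the labels as the block, left 1695 genes and 4 apolipoproteins called in HS against Con. Apob was lost (limma adjusted p = 0.051) and Apoa5 gained (limma adjusted p = 0.0483). Of 45 pairs of libraries with the same number, 12 had a correlation of their deviations over 0.1 (range -0.126 to 0.262, median 0.007). The highest were HS with HS+A10, at 0.262 for replicate 3 and 0.227 for replicate 1. Libraries with different numbers were not compared, so these values cannot decide whether the numbers pair the samples. The main fit did not pair them.

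Apoa4 and Apoc2 were called under all 17 alternatives run at the usual threshold in HS against Con and in HS+A10 against A10, Apob under 7 and 17, Apoe under 12 and 11, and Apoa1 in HS+A10 against A10 under 9. In A10-FMT against HS Apob was called under 15 of 16 and Apoc2 under 9, and in Con-FMT against HS Apoc2 under 15 of 16 and Apoa4 under 12. Without read numbers, no counting error can be given for a single value.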
